A study of Arabidopsis thaliana with 8 samples.

Results

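The microRNA (miRNA) genes of *Arabidopsis thaliana* were examined for S9.6 peaks in seedlings of the *ndx1-4* mutant and of the Col-0 wild type. The members were the 326 genes of biotype miRNA that RefSeq annotates on chromosomes 1 to 5 of TAIR10.1, of 37899 annotated genes in all. A gene was counted as having a peak when a peak shared at least 1 base with the gene or with the 500 bases on either side of it. DRIP-seq, which recovers DNA:RNA hybrids (R-loops) with the S9.6 antibody, had been applied to 10-day-old seedlings. *ndx1-4* is a T-DNA insertion line of *NDX*, the gene of the NODULIN HOMEOBOX protein, and Col-0 is its wild type. Each genotype had 1 input library, 2 S9.6 IP libraries and 1 S9.6 IP library treated with RNase H, which digests the RNA of hybrids. The values below come from the 1 peak list deposited for each genotype, with 13549 peaks for *ndx1-4* and 14180 for Col-0. With 1 list per genotype there is no replicate error and no test between genotypes, the depth behind a peak is unknown, and every interval given is a 95% Wilson interval that covers counting error only.

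Plant miRNA genes are transcribed by RNA polymerase II into long primary transcripts that fold into a hairpin. The ribonuclease DCL1 cuts the hairpin, the methyltransferase HEN1 protects the resulting small RNA, and an ARGONAUTE protein uses it to find matching messenger RNA for cleavage or repression. Many old, conserved families repress transcription factors that control leaf, root and flower development, while others repress genes for sulphate, phosphate or copper use. Most of the remaining families are found in few related species and often have a single gene.

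The annotated gene is the hairpin and not the whole primary transcript, whose start lies upstream. The 326 hairpins ranged from 59 to 689 bases with a median of 144.5 bases. By the number in their names they fell into 215 families, of which 166 had 1 gene. A list of 27 families known from many land plants, written down for this comparison, held 95 genes and is called the conserved families. The other 231 genes are called the other families. A protein-coding gene overlapped 89 members, and 237 lay outside protein-coding genes.

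The members carried 427 annotated mature miRNAs. Of these, 40 from 31 genes lay wholly under a peak in both lists, and they had 31 different seeds, the bases 2 to 8 that lead pairing with a target. The sets that shared a seed among these 40 are shown because they are the small RNAs whose own sequence lay under an S9.6 peak in both genotypes. Sequences were read from the RefSeq TAIR10.1 genome, 5′ to 3′, with the seed in capitals. miR166 represses class III homeodomain-leucine zipper genes, which set leaf polarity. miR167 represses auxin response factor genes, miR170 and miR171 repress GRAS transcription factors, and miR156 and miR157 repress SPL genes, which time the change from juvenile to adult growth.
miR166c, miR166d and miR166g: uCGGACCAggcuucauucccc
miR167a-5p and miR167b: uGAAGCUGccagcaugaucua
miR171a-3p: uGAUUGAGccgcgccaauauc
miR170-3p: uGAUUGAGccgugucaauauc
miR171a-5p and miR170-5p: uAUUGGCCugguucacucaga
miR156a-5p: uGACAGAAgagagugagcac
miR157d: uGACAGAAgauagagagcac
miR8167a, miR8167c, miR8167d and miR8167e: aGAUGUGGagaucguggggaug
The miR166 seed was present in 9 mature miRNAs over all members and the miR156 seed in 11, and 3 of the 9 and 2 of the 11 lay wholly under a peak in both lists. At MIR166b, MIR166e and MIR165b a peak touched the hairpin in both lists without covering the miRNA of this seed in both. Mature miRNAs of single seeds under a peak in both lists included both arms of MIR396a, which acts on growth-regulating factor genes, and both arms of MIR398a, which acts on copper superoxide dismutase genes.
miR396a-5p: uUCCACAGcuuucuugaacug
miR396a-3p: gUUCAAUAaagcugugggaag
miR398a-5p: aAGGAGUGgcaugugaacaca
miR398a-3p: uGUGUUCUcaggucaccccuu

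A peak was present at 81 of 326 miRNA genes in *ndx1-4* (24.8%, 20.5 to 29.8%) and at 91 in Col-0 (27.9%, 23.3 to 33%). The hairpin itself was touched at 43 genes in *ndx1-4* (13.2%) and 46 in Col-0 (14.1%). The share of genome windows of hairpin length with a peak was not measured. Windows of 1145 bases, the length of a median hairpin with its flanks, were laid over the whole genome as the background. Of these windows 16.4% held a peak in *ndx1-4* and 17.3% in Col-0. Windows that touched no protein-coding gene held one in 15.4% of cases in *ndx1-4* and 16.1% in Col-0. Both member shares were above these backgrounds, and the lower ends of their intervals were too. Other gene classes measured the same way were tRNA genes at 11% in *ndx1-4* and 11.5% in Col-0, snoRNA genes at 11.1% in *ndx1-4* and 12.9% in Col-0, and lncRNA genes at 25.5% in *ndx1-4* and 26.9% in Col-0. Protein-coding genes, which are longer and so offer more bases, had a peak in 36% of cases in *ndx1-4* and 37.6% in Col-0. Around gene starts alone, with 500 bases on each side, the comparison is between windows of equal length. A peak then lay at 22.1% of miRNA genes in *ndx1-4* and 24.8% in Col-0, against 21.7% of protein-coding genes in *ndx1-4* and 22.9% in Col-0.

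Peaks were more frequent at the conserved families than at the others. Of their 95 genes, 40 had a peak in *ndx1-4* (42.1%, 32.7 to 52.2%) and 46 in Col-0 (48.4%, 38.6 to 58.3%). Of the 231 genes of other families, 41 had a peak in *ndx1-4* (17.7%, 13.4 to 23.2%) and 45 in Col-0 (19.5%, 14.9 to 25.1%). The intervals of the conserved and the other families did not overlap in either list, and those of the other families included the share of all genome windows. The shares of the conserved families were as high away from protein-coding genes. Where no protein-coding gene touched the window, 30 of 70 conserved genes had a peak in *ndx1-4* (42.9%, 31.9 to 54.5%) and 36 of 70 in Col-0 (51.4%, 40 to 62.8%), against 22 of 91 genes of other families in each list (24.2%, 16.5 to 33.9%). Here the intervals of the conserved and the other families overlapped in *ndx1-4* and not in Col-0, and the interval of the other families lay above the share of windows without a protein-coding gene in both lists.

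**Figure D1:**
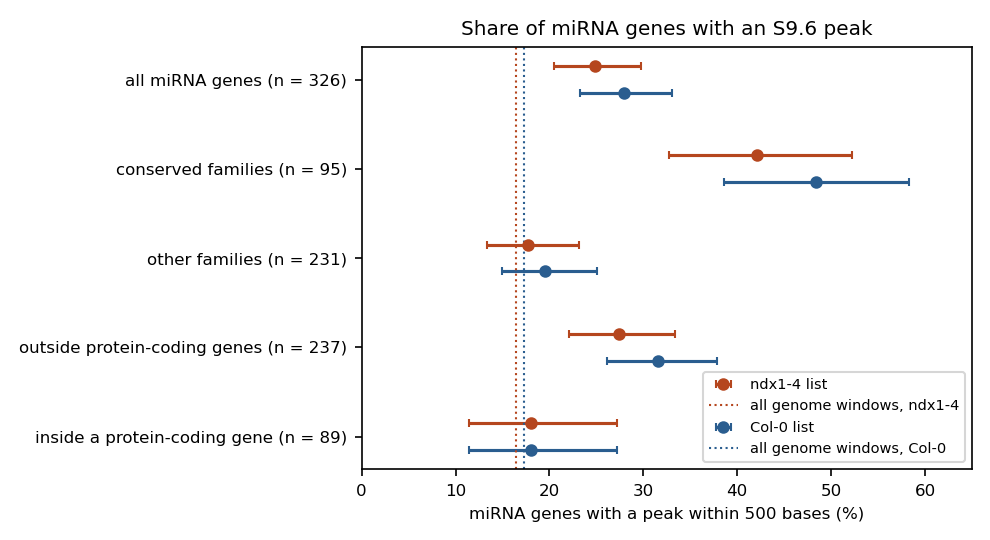
Share of miRNA genes with a peak within 500 bases, in percent, by class. Points are shares in the *ndx1-4* list (above) and the Col-0 list (below), bars are 95% Wilson intervals, and dotted lines are the shares of all genome windows of 1145 bases (16.4% in *ndx1-4* and 17.3% in Col-0). The conserved families lie at 42.1% in *ndx1-4* and 48.4% in Col-0, and their intervals do not reach those of the other families.

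Coverage of the conserved families was highest upstream of the hairpin. Averaged over their 95 genes, the maximum was 200 to 100 bases before the hairpin start, where 29.9% of positions lay under a peak in *ndx1-4* and 31.7% in Col-0. Peaks covered 4.49% of the genome in *ndx1-4* and 4.83% in Col-0. Over the 500 bases before the start the mean was 26.7% in *ndx1-4* and 27.7% in Col-0, and over the first 500 bases after it 10.6% in *ndx1-4* and 11.9% in Col-0. Protein-coding genes had the opposite arrangement, with their maximum 100 to 200 bases after the gene start, at 11.3% in *ndx1-4* and 11.9% in Col-0. Because the annotated start is that of the hairpin for a miRNA gene and of the transcript for a protein-coding gene, the 2 positions do not mark the same event. Other families outside protein-coding genes reached 11.4% in *ndx1-4* and 12.3% in Col-0 at 600 to 500 bases before the start. The 6 MIR8167 genes, which share 1 hairpin sequence, are among them and all had a peak over these bases in both lists. The profile without them was not measured.

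**Figure D2:**
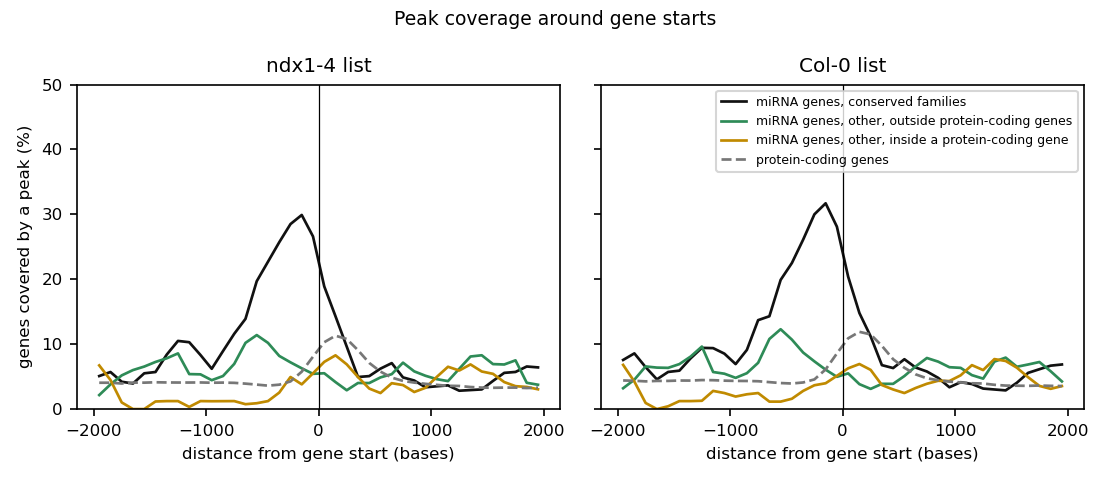
Percent of genes covered by a peak in 100-base bins, by distance from the annotated gene start in bases, in the *ndx1-4* list (left) and the Col-0 list (right). Lines are the conserved families (95 genes), the other families outside (150) and inside (81) protein-coding genes, and all protein-coding genes (27444). The conserved families reach 29.9% in *ndx1-4* and 31.7% in Col-0 before the start, and the protein-coding genes 11.3% in *ndx1-4* and 11.9% in Col-0 after it.

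Counted as pairs of a gene and a peak, the conserved families had 45 pairs in *ndx1-4* and 52 in Col-0. Of the 45 pairs in *ndx1-4*, 23 touched the hairpin, 14 lay only upstream and 8 only downstream. Of the 52 pairs in Col-0, 27 touched it, 17 lay only upstream and 8 only downstream. The midpoint of the peak was upstream of the hairpin start in 30 pairs in *ndx1-4* (66.7%) and 35 in Col-0 (67.3%). The peak touched no protein-coding gene in 40 of the 45 pairs in *ndx1-4* and 45 of the 52 in Col-0. Some of these peaks still lay within 500 bases of a protein-coding gene start, as at MIR166b, MIR166c and MIR398a in both lists.

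**Figure D3:**
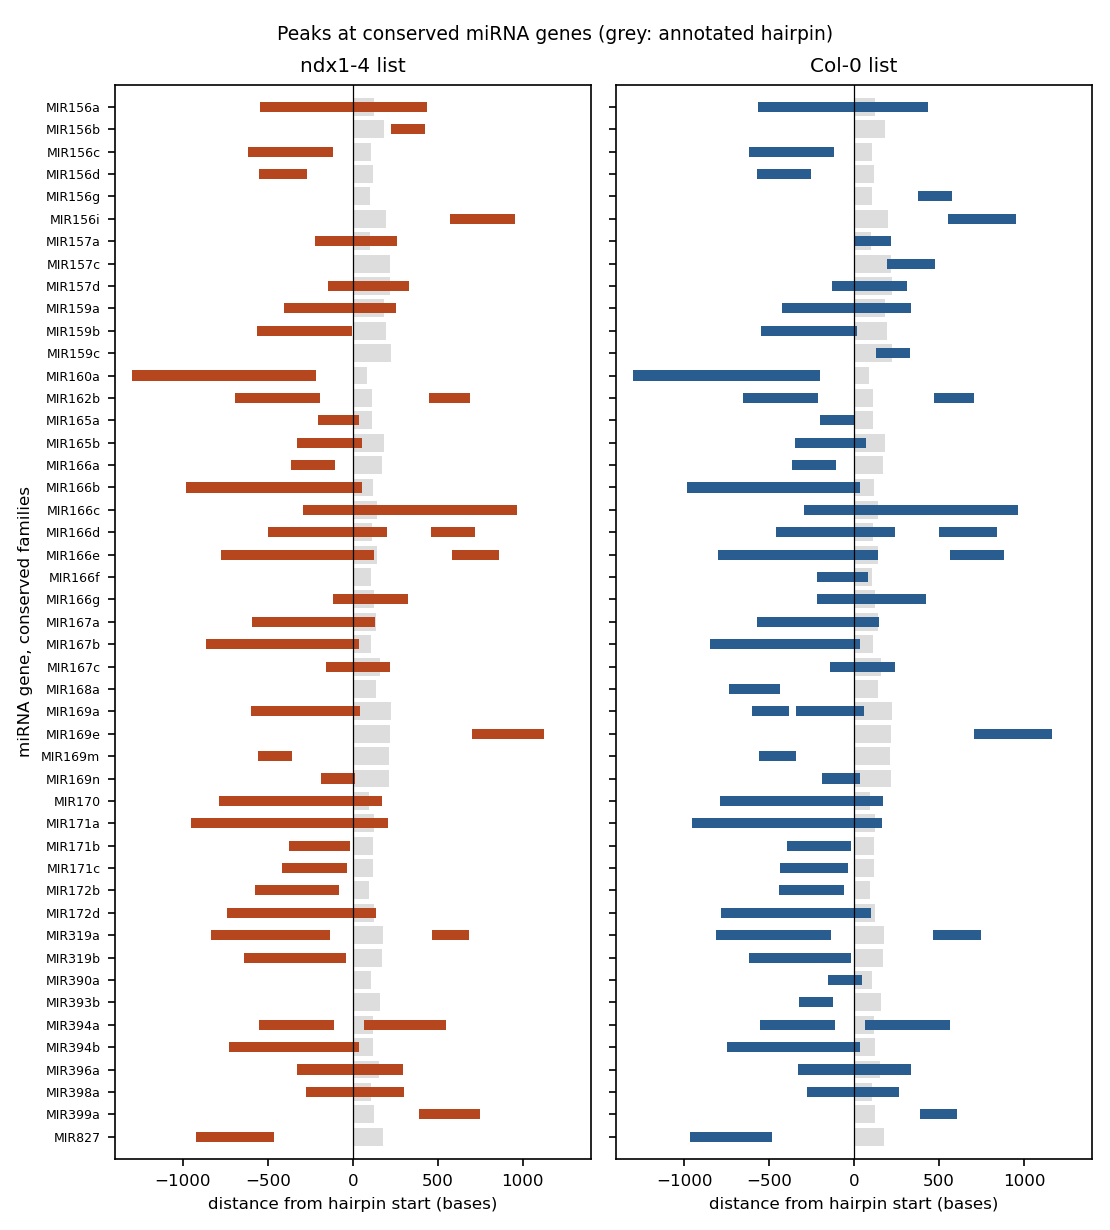
Peaks at the 47 conserved miRNA genes with a peak in either list, by distance from the hairpin start in bases, in the *ndx1-4* list (left) and the Col-0 list (right). Grey bars are the annotated hairpins and coloured bars the peaks. Most bars start upstream of the hairpin and have nearly the same edges in both lists, and 8 genes have a peak in 1 list only.

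The MIR166 family, which together with MIR165 acts on the genes of leaf polarity, had a peak at 6 of 7 genes in *ndx1-4* and 7 of 7 in Col-0. All 7 genes carry the same mature miR166 sequence. MIR166c (chr5:2838635-2838773, plus strand) had the longest peak at any miRNA gene, 1260 bases with identical edges in both lists, reaching 294 bases upstream and 965 bases downstream of the hairpin start. MIR166b had a peak of 1040 bases in *ndx1-4* and 1020 bases in Col-0, with its far edge 985 bases upstream in both. MIR166f was the exception, with a 300-base Col-0 peak of score 64 over the hairpin and the nearest *ndx1-4* peak 5721 bases away. The score is a whole number deposited with each peak, it is at least 53 in both lists and its unit is not stated, so it is ranked only within a list. A score of 64 exceeded 4.12% of Col-0 scores. Both MIR165 genes had a peak in each list.

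MIR166a had a peak with identical edges in both lists, chr2:19175741-19176000, from 367 to 108 bases before the hairpin start on the plus strand. Its score was 85 in each list. The sequence is shown as an example of the upstream DNA where most peaks of conserved genes lay, from TAIR10.1, with GAGAGA and TCTCTC in capitals.
MIR166a upstream peak: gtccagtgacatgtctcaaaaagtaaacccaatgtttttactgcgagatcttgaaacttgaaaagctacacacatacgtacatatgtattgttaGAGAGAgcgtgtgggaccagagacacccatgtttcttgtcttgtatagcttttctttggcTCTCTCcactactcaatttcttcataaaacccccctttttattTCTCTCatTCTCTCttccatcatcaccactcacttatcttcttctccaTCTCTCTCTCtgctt
It held GAGAGA 1 time and TCTCTC 6 times, overlapping matches counted. Its GC content was 40%, and purines made up 36.5% of the gene strand, so the opposite strand was rich in purines. Whether this stretch was transcribed was not measured.

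The same skew was seen over the conserved genes as a group. On the strand of the miRNA gene their peaks had a median of 44.7% purines in *ndx1-4* and 44.6% in Col-0, and 35 of 45 gene-peak pairs in *ndx1-4* and 37 of 52 in Col-0 were under 50%. Peaks of the other families had medians of 54.4% in *ndx1-4* and 54.3% in Col-0. Their 44 pairs in *ndx1-4* and 48 in Col-0 were mixed. They included 13 pairs in *ndx1-4* and 12 in Col-0 at members inside protein-coding genes, some on the strand opposite the host. They also included those of the identical MIR8167 hairpins, and the medians without these sets were not measured. Peaks near exactly 1 protein-coding gene start had a median of 45% purines on the gene strand in both lists. In the 500 bases before the start, the 39 conserved genes with a peak in both lists had a median of 44.8% purines, against 50% for the 48 conserved genes with no peak. All protein-coding genes had a median of 50.4% there. GAGAGA or TCTCTC was found in these 500 bases at 74.4% of the 39 conserved genes with a peak in both lists and at 60.4% of the 48 without. It was found at 68.4% of all conserved genes, 38% of other families outside protein-coding genes and 35.2% of protein-coding genes. TATAAA on the gene strand, the core of a TATA box, was found at 51.3% of the conserved genes with a peak in both lists and 70.8% of those with no peak, against 49.4% of protein-coding genes. The 3 motifs were searched as exact letters, both strands for the first pair, and a match is not evidence of use.

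The MIR156 and MIR157 families, which repress SPL genes, differed among their copies. MIR156 had a peak at 5 of 10 genes in each list, and MIR157 at 2 of 4 in *ndx1-4* and 3 of 4 in Col-0. The 6 genes MIR156a to MIR156f carry the same mature sequence, and 4 of these 6 had a peak in *ndx1-4* and 3 in Col-0. MIR156c had the second-highest score of any miRNA gene in each list, 287 in *ndx1-4* and 293 in Col-0, over 500 bases with identical edges that ended 120 bases before the hairpin. MIR156a had a peak of 980 bases in *ndx1-4* and 1000 bases in Col-0 across its hairpin. At MIR156d and MIR156i the peak lay outside the hairpin, and MIR156i, which lies in *SPL4* on the opposite strand, had its peak 573 to 952 bases downstream in *ndx1-4* and 553 to 952 bases in Col-0.

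MIR160, which acts on auxin response factor genes, had a peak at 1 of 3 genes, and that peak had the highest score of any member. At MIR160a (chr2:16340279-16340363) the score was 323 in *ndx1-4* and 320 in Col-0, above 99.7% of *ndx1-4* scores and 99.2% of Col-0 scores. The peak ran from 1298 to 219 bases upstream in *ndx1-4* and from 1298 to 199 bases upstream in Col-0, so it did not touch the hairpin. MIR160b and MIR160c, with the same mature sequence, had none in either list. MIR167 had peaks at 3 of 4 genes in each list, all over the hairpin.

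The GRAS-regulating genes all had peaks. MIR170 and MIR171a, MIR171b and MIR171c each had 1 in both lists. MIR171a had a peak of 1160 bases and score 219 in *ndx1-4*, and of 1120 bases and score 212 in Col-0, both starting 953 bases upstream and reaching across the hairpin. At MIR170 the edges were identical, 960 bases from 788 bases upstream to 171 bases downstream. MIR319, which represses TCP genes of leaf growth, had peaks at 2 of 3 genes in each list, and at MIR319b the score was 233 in *ndx1-4* and 237 in Col-0 over 600 bases. At MIR396a a peak of 620 bases in *ndx1-4* and 660 bases in Col-0 covered the hairpin, with scores of 229 in *ndx1-4* and 253 in Col-0. MIR394, which represses the F-box gene *LCR* of the shoot meristem, had peaks at both genes in each list. MIR159, which represses GAMYB-like genes, had peaks at 2 of 3 genes in *ndx1-4* and 3 of 3 in Col-0, and MIR172, which represses AP2-like flowering genes, at 2 of 5 in each list.

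MIR169, the family that acts on NF-YA transcription factor genes, had peaks at 4 of 14 genes in each list. MIR169h to MIR169n, 7 of the 14, carry the same mature sequence, and 2 of them, MIR169m and MIR169n, shared 1 peak, which was 200 bases in *ndx1-4* and 220 bases in Col-0. At MIR169a a single 640-base *ndx1-4* peak faced 2 Col-0 peaks of 220 and 400 bases. MIR164, which represses *CUC* genes of organ boundaries, had none at 3 genes.

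The counts of families known from nutrient responses, named here after their values were seen, were mixed. MIR395, induced by sulphate shortage, had 0 of 6 in both lists, and MIR399, induced by phosphate shortage, had 1 of 6 in both. The MIR399a peak lay downstream, at 388 to 747 bases from the start in *ndx1-4* and 388 to 607 bases in Col-0. MIR398, of copper shortage, had 1 of 3, MIR398a, with a score of 202 in *ndx1-4* and 207 in Col-0. MIR397 (2 genes) and MIR408 (1 gene), of the same copper response, had none. MIR827, of phosphate homeostasis, had a peak 465 to 924 bases upstream in *ndx1-4* and 485 to 964 bases upstream in Col-0. MIR2111, of nitrogen signalling, had a peak at 0 of 2 genes in *ndx1-4* and 1 of 2 in Col-0. Whether these genes were transcribed in these seedlings was not measured here.

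**Figure D4:**
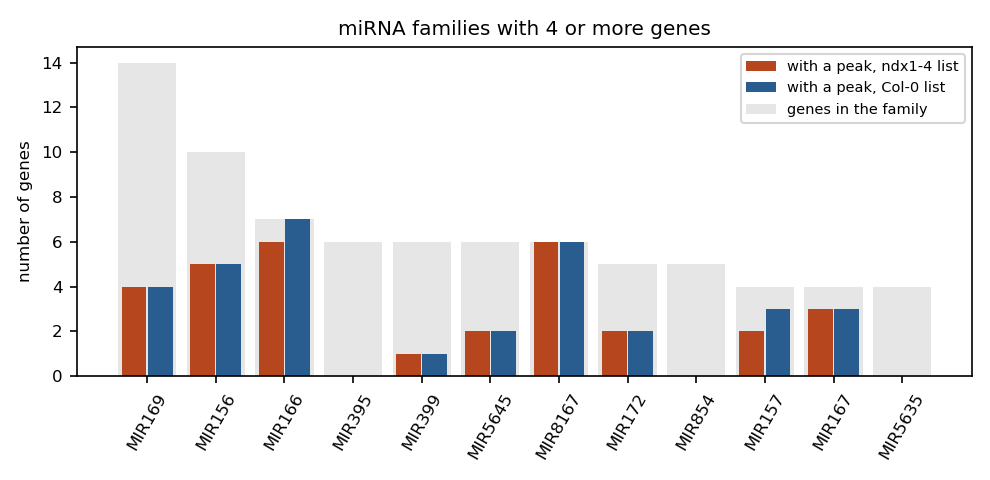
Number of genes in each of the 12 families with 4 or more genes (grey) and number with a peak in the *ndx1-4* list (left bar) and the Col-0 list (right bar). MIR8167 has a peak at all 6 genes in both lists and MIR166 at 6 of 7 in *ndx1-4* and 7 of 7 in Col-0, while MIR395, MIR854 and MIR5635 have none. Much of the sequence at MIR8167 and MIR854 occurs more than once in the genome, as given below.

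Over the 27 conserved families, 18 had a peak at a gene or more in *ndx1-4* and 21 in Col-0, and 6 had none in either list. To ask whether the mature sequence goes with a peak, genes that share one were compared. In all, 45 mature sequences were carried by more than 1 gene. In *ndx1-4* every gene had a peak for 8 of these sequences, some genes for 14 and none for 23. In Col-0 every gene had one for 10, some for 17 and none for 18. Copies of a sequence therefore differed in whether a peak lay near for 14 of the 45 in *ndx1-4* and 17 in Col-0. The 45 are not independent, since both arms of MIR162a and MIR162b count separately and MIR5998a and MIR5998b share a peak.

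Among the other families, MIR8167 was the one with 2 or more genes that had a peak at every gene in both lists, 6 of 6. Its 6 hairpins of 75 bases were identical at 75 of 75 positions, and the genome held no further exact copy. The mature part is in capitals.
MIR8167a: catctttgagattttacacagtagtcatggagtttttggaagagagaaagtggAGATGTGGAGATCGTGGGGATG
Identity with MIR8167a ran on for 60 to 72 bases before the hairpin and 21 to 59 bases after it in the other copies. In all 6, a peak touched the hairpin in each list and reached upstream by 331 to 740 bases in *ndx1-4* and by 31 to 760 bases in Col-0, the smallest of these being MIR8167a, where a second peak lay farther upstream in each list. The mature miRNA lay wholly under a peak in both lists at MIR8167a, MIR8167c, MIR8167d and MIR8167e, in Col-0 only at MIR8167b and in neither list at MIR8167f. At MIR8167d a further peak downstream of the hairpin had a score of 243 in *ndx1-4* and 254 in Col-0. Every 31-base word of the hairpins occurred more than once in the genome, and such words made up 35.4 to 74.4% of the windows with flanks, so reads there could be placed at several copies. The part of read placement in these peaks was not tested. Without the 6 MIR8167 genes, the other families had a peak at 15.6% of 225 genes in *ndx1-4* and 17.3% in Col-0. MIR854 (5 genes) and MIR5635 (4 genes), each with 1 mature sequence shared by all copies, had none. Repeated words made up 79 to 94.1% of the MIR854 windows and 10.3 to 19.5% of the MIR5635 windows. The part of read placement in the absence of peaks at MIR854 was not tested. Windows with over 50% repeated words were found at 2 of 93 members with a peak and 13 of 233 without, and at 0 of 95 conserved genes, a count that allows up to 3.16%.

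Members inside protein-coding genes had a peak in 16 of 89 cases in each list (18%, 11.4 to 27.2%), against 65 of 237 members outside them in *ndx1-4* (27.4%, 22.1 to 33.4%) and 75 of 237 in Col-0 (31.6%, 26.1 to 37.8%). Only 8 of the 89 belonged to conserved families, so this difference also holds a difference in family. Within the other families the share was 16% inside and 18.7% outside in *ndx1-4*, and 14.8% inside and 22% outside in Col-0. With the host on the same strand 11 of 56 had a peak in *ndx1-4* and 10 in Col-0, and with the host on the opposite strand 5 of 33 in *ndx1-4* and 6 in Col-0. Hairpins mostly in host introns had a peak in 6 of 41 cases in *ndx1-4* and 7 in Col-0, those mostly in host UTR in 6 of 34 in *ndx1-4* and 5 in Col-0, and those mostly in host CDS in 4 of 14 in each. Where the peak lies on the host, the host's own transcript and that of the miRNA gene cannot be told apart. The peaks counted for MIR169a and MIR824, whose hairpins lie only partly inside the host, touched no base of the host. The MIR5655 peak touched the protein-coding gene AT2G45930, which overlaps the hairpin, in both lists.

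The host-gene members with a peak in both lists were MIR156d, MIR156i, MIR169a, MIR413, MIR415, MIR824, MIR837, MIR2936, MIR5014a, MIR5021, MIR5628, MIR5655, MIR5656, MIR5658 and MIR8178. MIR2936, in the coding sequence of *SAG21*, a senescence-associated gene, had the highest score of them, 184 in *ndx1-4* and 175 in Col-0, with 460 bases in *ndx1-4* and 420 bases in Col-0. MIR837 lies in an intron of the nitrate transporter gene *NRT1.9* and had a peak of 400 bases in *ndx1-4* and 440 bases in Col-0. MIR5658, whose mature sequence is a run of near-perfect GAU repeats, had a peak of 780 bases in *ndx1-4* and 680 bases in Col-0 and lies in the coding sequence of AT4G39840, on the opposite strand.
miR2936: cUUGAGAGagagaacacagacg
miR5658: aUGAUGAUgaugaugaugaaa

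The peaks at members were longer than those of the lists as a whole. A longer peak meets any window more easily, and the lengths of peaks at background windows were not measured, so the comparison is descriptive. With the hairpin alone as the window, the median was 600 bases in *ndx1-4* and 560 bases in Col-0. The 88 *ndx1-4* peaks had a median of 480 bases (quartiles 360 and 685) and the 98 Col-0 peaks 440 bases (300 and 660), against 340 bases over all peaks of either list. The median score was 104 in *ndx1-4*, where it was 93 over all peaks, and 104 in Col-0, where it was 96. Also among the 6 longest in each list was the peak of MIR847, whose miRNA acts on the auxin repressor gene *IAA28*, with 1120 bases in *ndx1-4* and 1160 bases in Col-0. This peak ended 117 bases before the hairpin in *ndx1-4* and 137 bases before it in Col-0 and touched a protein-coding gene.

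The lists agreed closely on position. Both had a peak at 79 members, *ndx1-4* alone at 2, Col-0 alone at 12 and neither at 233. In windows of 500 bases on each side of the gene start, 2 of 326 members had a peak in *ndx1-4* only and 11 in Col-0 only. In the same windows at protein-coding gene starts, 1.28% had a peak in *ndx1-4* only and 2.52% in Col-0 only. An overlapping peak in the other list was found for 86 of 88 *ndx1-4* peaks at members (97.7%, against 92.6% of all *ndx1-4* peaks) and 88 of 98 Col-0 peaks (89.8%, against 88.1% of all Col-0 peaks). Of 83 peaks that paired 1 to 1, 25 were longer in *ndx1-4*, 35 were longer in Col-0 and 23 were equal, and 11 had identical edges. The lengths lay within 40 bases of each other in 68 pairs (81.9%), against 82.9% of all such pairs in the genome. The window bases under a peak were more in *ndx1-4* at 29 of the 79 shared members, more in Col-0 at 28 and equal at 22.

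**Figure D5:**
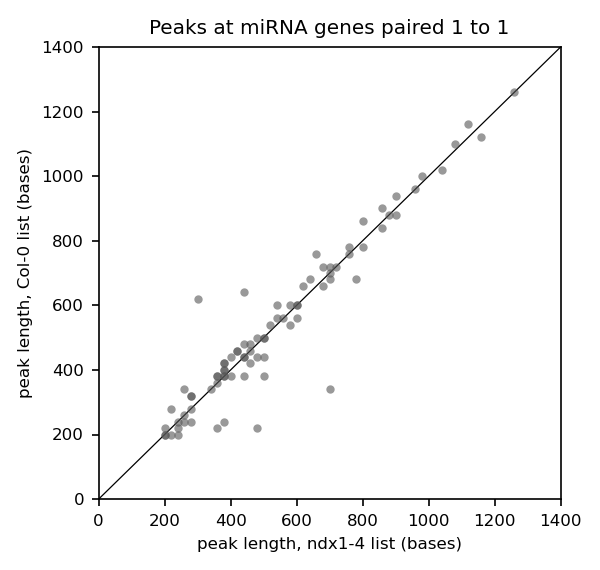
Length in bases of the 83 peaks at miRNA genes that paired 1 to 1, in the *ndx1-4* list (x axis) and the Col-0 list (y axis). Each point is a pair and the line marks equal length. Most points lie on or beside the line, 68 of them within 40 bases.

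The largest differences in length went both ways. At MIR8183 the peak was 700 bases in *ndx1-4* and 340 bases in Col-0, and at MIR157a 480 bases in *ndx1-4* and 220 bases in Col-0. At MIR5645f it was 300 bases in *ndx1-4* and 620 bases in Col-0, and at MIR166g 440 bases in *ndx1-4* and 640 bases in Col-0. The 2 members with a peak in *ndx1-4* only were MIR156b, with 200 bases of score 63, and MIR8182, with 220 bases of score 70 over the hairpin in AT3G61270. The MIR156b score exceeded 3.89% of *ndx1-4* scores and the MIR8182 score 12.7%. The members with a peak in Col-0 only shared 11 peaks. They were MIR156g, MIR157c, MIR159c, MIR166f, MIR168a, MIR390a, MIR393b, MIR861, MIR2111b, MIR5013, MIR5998a and MIR5998b, the last pair with 1 peak in common. That peak entered the window of MIR5998a by 5 bases and that of MIR5998b by 13 bases, and it overlapped an *ndx1-4* peak whose nearer edge lay 508 bases from MIR5998b and 516 bases from MIR5998a, outside both windows. The other 10 Col-0 peaks had no partner. MIR168a acts on *AGO1*, MIR390a starts the trans-acting small RNA pathway of auxin response factors with AGO7, MIR393b acts on auxin receptor genes and MIR2111b moves from shoot to root in nitrogen signalling. Scores of these Col-0 peaks ran from 64 to 94 except at MIR861, where a 560-base peak of score 182 exceeded 92.7% of Col-0 scores and shared only 46 bases with the window. At MIR390a the Col-0 peak of 200 bases, score 72, covered the hairpin start, and the nearest *ndx1-4* peak was 5734 bases away. An *ndx1-4* peak lay within 1000 bases of 3 of the 12.

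The proteins that make and use miRNAs were given a list of 25 genes. A peak in the gene or its 500-base flanks was found at 12 of 25 in *ndx1-4* (48%, 30 to 66.5%) and 16 of 25 in Col-0 (64%, 44.5 to 79.8%), and the 12 were all among the 16. The list's genes had a median length of 3922 bases, against 2078 for all protein-coding genes. The 19065 protein-coding genes within the length range of the list, 1474 to 8107 bases, had a peak in 40.6% of cases in *ndx1-4* and 42.4% in Col-0. Lengths within that range were not matched to those of the list. By role, processing factors had peaks at 6 of 14 genes in *ndx1-4* and 9 in Col-0, methylation and export at 1 of 2 in each list, effectors at 4 of 5 in *ndx1-4* and 5 in Col-0, and turnover at 1 of 4 in each list.

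Among processing factors, *HYL1*, the double-stranded RNA-binding partner of DCL1, had a peak over its start of 680 bases in *ndx1-4* and 760 bases in Col-0. *NOT2B*, of the CCR4-NOT family, also had one over its start, and *MOS2*, *CPL1*, *ABH1* and *TGH* had theirs inside the gene, with the highest score at *MOS2*, which encodes an RNA-binding protein, 258 in *ndx1-4* and 267 in Col-0. *HEN1* had a peak with identical edges in both lists, from 197 bases before to 302 bases after the start, with a score of 103 in each. *AGO10*, whose protein binds miR165 and miR166, had 2 peaks of 200 and 940 bases in *ndx1-4* where Col-0 had 1 of 1180 bases. *SQN*, a cyclophilin that aids AGO1, had a peak of 620 bases in *ndx1-4* and 640 bases in Col-0 over its start. *AGO2* had a 220-base peak in *ndx1-4* and a 200-base peak in Col-0 upstream of its start, and *SDN2*, an exonuclease gene, had 240 bases in *ndx1-4* and 380 bases in Col-0 near its end.

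Col-0 peaks with no partner lay at *DCL1*, *SE*, *DDL*, *AGO1* and *AGO7*. How often whole protein-coding genes with their flanks have a peak in 1 list only was not measured. In the shorter windows at protein-coding gene starts, 2.52% had a peak in Col-0 only and 1.28% in *ndx1-4* only. *DCL1*, the gene of the central ribonuclease, had a Col-0 peak of 1380 bases and score 277 from 100 bases before to 1279 bases after its start, and a 200-base peak of score 79 past its end. *DDL*, whose protein binds DCL1, had 760 bases of score 486, and *AGO7* had 1160 bases of score 467 over its start, both above 99.9% of Col-0 scores. *AGO7* had 2 further peaks in each list. *SE*, the zinc finger partner of DCL1, had 1020 bases of score 169 that lay wholly upstream, and *AGO1* had 200 bases of score 72 at its end. High-scoring Col-0 peaks without a partner were common in that list as a whole. Of 187 Col-0 peaks with at least the *DCL1* score, 80 had no partner in *ndx1-4* (42.8%), against 11.9% of all Col-0 peaks. Of 16 with at least the *DDL* score, 10 had none (62.5%). In the *ndx1-4* list, whose scores may be on another scale, 5 of 90 peaks at or above the *DCL1* number had no partner (5.56%). The source of the Col-0 peaks without a partner was not tested. MIR838, which lies in an intron of *DCL1*, had no peak in either list, and of the 2 genes for miR162, which acts on *DCL1*, MIR162b had peaks in both lists and MIR162a had none. MIR403, which acts on *AGO2*, had no peak in either list.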

How the data were processed

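S9.6 DRIP-seq peak lists of *ndx1-4* and Col-0 seedlings were used, 1 per genotype. Per the labels, the authors' processing used Bowtie2, SAMtools, Picard, deepTools and MACS2 with the TAIR10 build, without versions or settings. How the libraries of a genotype entered its list is not given in the sources used here. The deposited score of each peak was taken as given and ranked within a list only. Positions are in the authors' coordinates, written 1-based, and TAIR10.1 has the same chromosomes (2 peaks of each list end at a chromosome end and 0 beyond it). Other deposited per-sample columns were 0 in number.

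Members, hosts and mature miRNAs came from the RefSeq TAIR10.1 annotation. A peak counted with at least 1 shared base within 500 bases of a gene. Background windows of 1145 bases were stepped by 100 bases. A 31-base word was counted as repeated when the genome held it, on either strand, at over 1 place. Shares have 95% Wilson intervals. Genes that overlap in their windows share peaks (304 loci after merging). The overlap code was tested on 5000 simulated windows, with 0 mismatches. Python 3.11.15, numpy 2.4.6, scipy 1.17.1 and matplotlib 3.10.9 were used.

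Members, families and gene lists were chosen with earlier results of these data known. Named were members with a peak in 1 list only, the 6 with the highest score and the 6 with the longest peak per list, those with a mature miRNA wholly under a peak in both lists, families of at least 4 genes, members with a peak inside protein-coding genes and pathway genes with a peak. Other conserved families, other single genes and the largest length differences were named after their values were seen. Alternatives were other flanks (0, 250 and 1000 bases), a 100-base overlap, peaks of at least 500 bases, the higher-scoring 50% of each list, start windows, merged loci, host strand, hairpins wholly inside the host and a narrower family list.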

Additional observations from a re-analysis of the deposited data

How the results depend on the processing

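No paired analysis was possible because the lists, 1 per genotype, carry no replicate numbers, and no replicate could be left out. For the 19 results 112 alternatives were run, 102 planned and 10 added after seeing the data. In 61 the value stayed within the 95% Wilson interval, or within 1.5 times for counts and medians. The conserved families had the higher share under each flank, overlap, length and score setting in both lists. Fewer bases or peaks lowered the shares, which follows from the settings themselves. Genome windows were measured only at 1145 bases and with all peaks, so the shares under the other flanks and peak sets have no background.

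With the hairpin alone, the shares in *ndx1-4* were 13.2% of all members, 24.2% of conserved and 8.66% of other families, 11.2% inside and 13.9% outside protein-coding genes. In Col-0 they were 14.1%, 28.4%, 8.23%, 10.1% and 15.6% of these classes, with 41 genes in both lists and 5 in Col-0 only. With 250 bases the *ndx1-4* shares were 19.6% of all members and 13% of other families, and the Col-0 shares 20.2% of all, 12.1% of other families, 10.1% inside and 24.1% outside, with 5 genes in Col-0 only. With 1000 bases the *ndx1-4* shares were 32.8% of all, 26.4% of other families and 35.4% outside, and the Col-0 shares 35.6%, 28.1% and 38.8%. With peaks of at least 500 bases the *ndx1-4* shares were 12.6% of all, 23.2% of conserved and 8.23% of other families, 4.49% inside and 15.6% outside, and the Col-0 shares 12.6%, 22.1%, 8.66%, 3.37% and 16%, with 37 genes in both lists, 4 in *ndx1-4* only and 4 in Col-0 only. With the higher-scoring 50% the *ndx1-4* shares were 16.9% of all, 30.5% of conserved and 11.3% of other families, 5.62% inside and 21.1% outside, and the Col-0 shares 17.5%, 30.5%, 12.1%, 5.62% and 21.9%, with 52 genes in both lists and 5 in Col-0 only. With a 100-base overlap 6 genes were in Col-0 only. Depth per library is unknown, so a peak missing from a list may lie below its threshold.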
